A study of Mus musculus with 24 samples.

Results

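Cells that copy their DNA must first make the 4 deoxynucleotides it is built from. Ribonucleotide reductase turns ribonucleotides into deoxyribonucleotides with a large catalytic subunit, encoded by Rrm1, and a small subunit that carries the radical, encoded by Rrm2. Thymidylate synthase (Tyms) makes the thymine nucleotide from deoxyuridine monophosphate, dUTPase (Dut) supplies that substrate and keeps uracil out of DNA, and thymidine kinase 1 (Tk1) and deoxycytidine kinase (Dck) recover nucleosides by salvage. Upstream, Cad and Umps are multifunctional enzymes that carry out the opening and the closing steps of de novo pyrimidine synthesis. Several of these genes are known in mammalian cells as E2F targets that are switched on at the entry into S phase and switched off when cells leave the cycle, while Cad is a known target of Myc.

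These 8 genes were followed in glial progenitor cells that had been derived from mouse embryonic stem cells and were hybridized to Illumina bead arrays. They were found by annotated gene symbol and hold 17 of the 25697 probes of the array, among 16593 named genes. Tyms has 5 probes, Tk1 and Umps have 3 each, Rrm2 has 2, and Rrm1, Dut, Dck and Cad have 1 each. The gene altered in the study is Dgcr8, whose product helps to cut primary microRNA transcripts: flox/delta cells carry a conditional and a deleted allele, and the labels describe the knockout cells of hybridization 1 as delta/delta. The groups were undifferentiated flox/delta cells kept in N2 medium with EGF and FGF (3 arrays), flox/delta cells differentiated by removal of EGF and FGF and addition of B27 and 1% FBS (3 arrays), and undifferentiated Dgcr8 knockout cells (3 arrays), all in hybridization 1. Hybridizations 2 and 3 held knockout cells that were mock treated (4 arrays), given let-7 (3 arrays) or given miR-125 (3 arrays). The tamoxifen protocol was 16 h at 1 uM and 16 h at 100 nM. Tamoxifen is listed as a treatment for knockout arrays alone, and the word mock is used for those of hybridization 1 too.

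Mean raw signal lay between 298 and 474 in hybridization 1, between 1429 and 1523 in hybridization 2 and between 756 and 868 in hybridization 3, and 11788 to 13129 probes per array were detected. Levels are log2 signal after background correction and quantile normalization, and were compared only between arrays normalized together. Probes with a detection p under 0.05 on 3 or more of the compared arrays were tested, and a probe was called changed when its limma p, adjusted by Benjamini-Hochberg over all tested probes, was under 0.05. The Dgcr8 probe read 6.67 to 7.04 in knockout and 7.28 to 7.50 in flox/delta arrays (log2 difference -0.52, limma adjusted p = 0.00540), and whether it lies in the deleted part is not given in the sources used here. Of the 10 measured glial progenitor markers, the summed level was 38186 to 38395 in undifferentiated flox/delta arrays. No microglia marker passed the detection filter in hybridization 1.

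On differentiation, all 8 genes fell, and so did each of their 15 tested probes. Of all 12738 probes tested, 27.0% fell and 26.7% rose. The median log2 difference of the 8 genes was -2.23, beside -0.01 over all 9404 genes. By brightest probe the log2 differences were largest in size for Tk1, Rrm2, Tyms and Rrm1, followed by Dut, Dck, Umps and Cad, and differences between genes were not tested. The tests compare 3 arrays with 3, and the labels do not say whether the replicates of hybridization 1 came from separate cultures, so their p-values measure the spread between these arrays. In such bulk RNA, fewer cells of a type and less RNA per cell cannot be told apart.

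**Figure D1:**
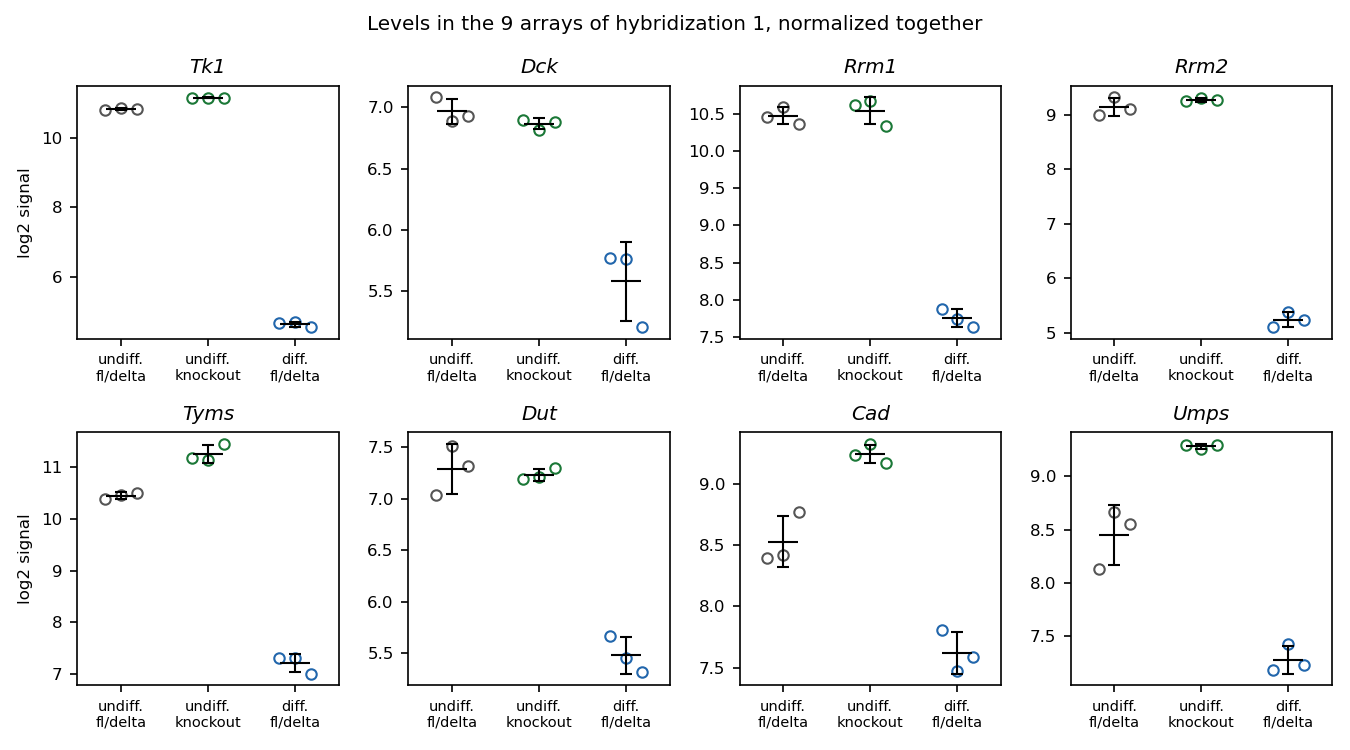
Log2 signal (y axes, each with its own range) of the probe of highest mean signal of each gene in the undifferentiated flox/delta, undifferentiated knockout and differentiated flox/delta arrays, normalized together. Circles are arrays and bars are the mean with SD (n = 3). For each gene the 3 differentiated arrays lie below the other 6. For Tk1, Tyms, Cad and Umps the 3 knockout arrays lie above the 3 undifferentiated flox/delta arrays. The share of all probes with such a separation is not given here. By the test, 27.0% of all probes fell on differentiation and 27.1% rose in the knockout.

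Among the salvage kinases, Tk1 phosphorylates thymidine in the cytosol. Its probe ILMN_2605890 read 10.73, 10.78 and 10.76 in the undifferentiated arrays and 4.68, 4.71 and 4.57 in the differentiated arrays. The groups lie far apart, and the probe was detected above background on only 1 of the 3 differentiated arrays, so that its level there is close to the floor of the assay. The log2 difference was -6.10 ± 0.09 (SE, limma adjusted p = 6.54e-10), a 68.7-fold fall. Without background correction the same difference was -4.16, so the fold depends on how the floor is handled while the direction and the call do not. A dimmer Tk1 probe, ILMN_2893926, fell from 7.48 ± 0.03 to 4.72 ± 0.23 (SD, n = 3), and the remaining Tk1 probe was detected on none of the 6 arrays.

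Dck phosphorylates deoxycytidine, and also deoxyadenosine and deoxyguanosine. It read 7.04, 6.86 and 6.90 before and 5.76, 5.76 and 5.22 after differentiation. No differentiated array reached the undifferentiated range, and the third differentiated array was the lowest. This was a log2 difference of -1.35 ± 0.15 (SE, limma adjusted p = 7.32e-05), a 2.56-fold fall, and it was -0.67 without background correction.

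Both subunits of ribonucleotide reductase fell. Rrm1 read 10.39, 10.53 and 10.30 before and 7.84, 7.71 and 7.61 after differentiation. Rrm2 read 8.93, 9.26 and 9.05 before and 5.12, 5.38 and 5.23 after differentiation at its brighter probe, ILMN_2819319. In neither gene did the groups overlap. Rrm1 had a log2 difference of -2.69 ± 0.11 (SE, limma adjusted p = 7.81e-08). It was -3.84 ± 0.12 for the brighter Rrm2 probe (SE, limma adjusted p = 1.79e-08) and -3.64 ± 0.16 for the other, ILMN_2714565, so that both Rrm2 probes gave a fall of between 12.5-fold and 14.3-fold. Without background correction the Rrm2 differences were -2.43 and -2.12.

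In the making of thymidylate, Tyms at its brightest probe, ILMN_2484707, read 10.32, 10.39 and 10.45 before and 7.27, 7.27 and 6.97 after differentiation. The arrays of the groups are well separated. The log2 difference was -3.22 ± 0.11 (SE, limma adjusted p = 3.47e-08), a 9.29-fold fall. Of the other 4 Tyms probes, ILMN_1247173 fell by 2.76 on the log2 scale (by 1.45 without background correction), while ILMN_2441895 and ILMN_2441899, which read close to background, fell by 0.66 and 0.57. The first of these dim probes was not above background on any differentiated array, which makes its fall at least 1.35-fold. The fifth was detected on 1 of the 6 arrays and was not tested. The array also holds a probe for Tyms-ps, annotated as a Tyms pseudogene, and whether its transcript and that of Tyms share signal was not tested.

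Dut hydrolyses dUTP. It read 7.0, 7.48 and 7.29 before and 5.66, 5.45 and 5.32 after differentiation, again with no overlap. Dut thus had a log2 difference of -1.78 ± 0.14 (SE, limma adjusted p = 7.56e-06), a 3.43-fold fall, and it was -0.92 without background correction.

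The de novo pyrimidine enzymes Cad and Umps had the smallest differences by brightest probe, but without background correction Dck (-0.67) lay below Cad (-0.69) and Umps (-0.86) in size. Cad read 8.34, 8.37 and 8.71 before and 7.76, 7.44 and 7.55 after differentiation. The closest arrays of the groups were 8.34 and 7.76. Its log2 difference was -0.89 ± 0.14 (SE, limma adjusted p = 0.000444), a 1.86-fold fall. Umps at its brightest probe, ILMN_1213014, read 8.08, 8.62 and 8.50 before and 7.15, 7.39 and 7.19 after differentiation, and its log2 difference was -1.15 ± 0.15 (SE, limma adjusted p = 0.000163). The other Umps probes, ILMN_1254813 and ILMN_2987878, fell by 0.80 and 0.79, or by 0.38 and 0.26 without background correction.

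Promoters of all 8 genes were taken from RefSeq (GRCm38.p6), from 250 bases before to 50 after the annotated start, because the genes moved together on differentiation. Letters were searched on both strands. The E2F-type words TTTCCCGC, TTTGGCGC, TTTCGCGC and TTTGCCGC were in none of the 8 windows and in 2.26% of all 32851 promoters. The word CCAAT, bound by NF-Y, was in 2 of 8 windows, those of the ribonucleotide reductase subunits, and in 37.4% of all promoters. In Rrm1 it starts at positions -91 and -45, and in Rrm2 at position -50, counted from the annotated start. The word GGGCGG, of the Sp1 type, was in 7 of 8 windows, with 6 copies in Dck and none in Rrm1, and in 35.7% of all promoters. The E-box CACGTG was in Tyms alone among the 8, beside 7.15% of all promoters, and TTTGAA, a word of cell cycle promoters, was in Dck and Umps, beside 17.9%. No match overlaps a match of another word in these windows (0 overlaps). A word is a description of the window and no evidence of binding. Absence of a word does not show that a site is lacking, since other spellings and bases outside the window were not searched. The ribonucleotide reductase and Tyms windows are shown because they hold the CCAAT and E-box words, which are in capitals.

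Rrm1, plus strand of chr7:102441445-102441744: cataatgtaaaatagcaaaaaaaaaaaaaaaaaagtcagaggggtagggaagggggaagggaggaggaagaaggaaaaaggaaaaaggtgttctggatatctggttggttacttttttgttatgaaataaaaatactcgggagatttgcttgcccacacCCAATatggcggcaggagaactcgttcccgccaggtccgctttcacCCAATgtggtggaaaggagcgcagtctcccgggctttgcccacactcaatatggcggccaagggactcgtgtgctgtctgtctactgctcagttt

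Rrm2, plus strand of chr12:24708004-24708303: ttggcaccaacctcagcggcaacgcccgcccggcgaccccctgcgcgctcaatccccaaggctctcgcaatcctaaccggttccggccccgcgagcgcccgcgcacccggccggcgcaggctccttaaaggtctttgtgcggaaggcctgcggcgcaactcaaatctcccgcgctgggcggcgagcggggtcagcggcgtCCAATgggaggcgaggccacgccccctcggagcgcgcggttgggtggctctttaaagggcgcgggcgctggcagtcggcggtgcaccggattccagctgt

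Tyms, minus strand of chr5:30073576-30073875: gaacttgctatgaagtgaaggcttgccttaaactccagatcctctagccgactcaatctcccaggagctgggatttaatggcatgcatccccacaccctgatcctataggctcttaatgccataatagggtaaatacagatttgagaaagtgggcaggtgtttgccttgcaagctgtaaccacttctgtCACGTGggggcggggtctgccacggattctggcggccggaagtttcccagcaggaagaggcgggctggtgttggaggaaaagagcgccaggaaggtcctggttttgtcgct

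Other genes of nucleotide supply were read from lists of the same pathways, each gene by its brightest tested probe. Of 12 further genes of deoxynucleotide supply, 5 fell and 3 rose on differentiation, with a median log2 difference of -0.18. The falls were largest for Dctd, which deaminates dCMP (-1.88), Dctpp1, which hydrolyses dCTP and its modified forms (-1.67), and Dtymk, which adds the next phosphate to thymidylate (-1.40). Those that rose were Cmpk2 (0.59), Tk2 (0.52) and Dguok (0.40), which serve the mitochondrial deoxynucleotide pool. Rrm2b, the small reductase subunit of cells outside S phase, did not pass the test. Of the 5 other pyrimidine genes, Uck2 (-0.60) and Dhodh (-0.50) fell and Uck1 (0.79) rose. Purine synthesis followed the 8 enzymes in direction, with 8 of 9 measured genes lower and none higher, led by Ppat (-1.51), the amidotransferase that commits to the pathway, Atic (-0.78) and Adsl (-0.74).

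Salvage and breakdown genes split. Upp1, uridine phosphorylase (-2.53), and Hprt, which recovers hypoxanthine and guanine (-1.86), fell, while Nt5e (0.63), Aprt (0.55), Adk (0.54) and Pnp (0.53) rose, and 4 of the 10 measured did not pass the test. In folate one-carbon supply, on which Tyms depends, 4 of 5 measured genes fell. Shmt1 was above background on no differentiated array and was at least 5.44-fold lower, and Mthfd2 (-2.25) and Shmt2 (-1.04) were the next largest. All 19 measured replication fork genes fell, with a median log2 difference of -2.77, from Mcm5 (-3.91), Mcm3 (-3.61) and Lig1 (-3.42) downwards in size. Per gene, 26.9% of all genes fell and 27.7% rose. Astrocyte markers moved the other way, with 7 of 8 higher and a summed level of 30794 to 34860 in differentiated against 11081 to 12132 in undifferentiated arrays. Oligodendrocyte markers rose in 3 of 3 measured genes (summed level 1656 to 2143 against 347 to 561), neuron markers in 2 of 4 (6124 to 6795 against 4755 to 5428) and endothelial and mural markers in 1 of 1 (160 to 186 against 56.1 to 64.8). Glial progenitor markers rose in 4 and fell in 4 of 10 measured genes (40151 to 41013 in differentiated against 38186 to 38395 in undifferentiated arrays). The part of any of these marker lists in the falls above was not tested.

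**Figure D2:**
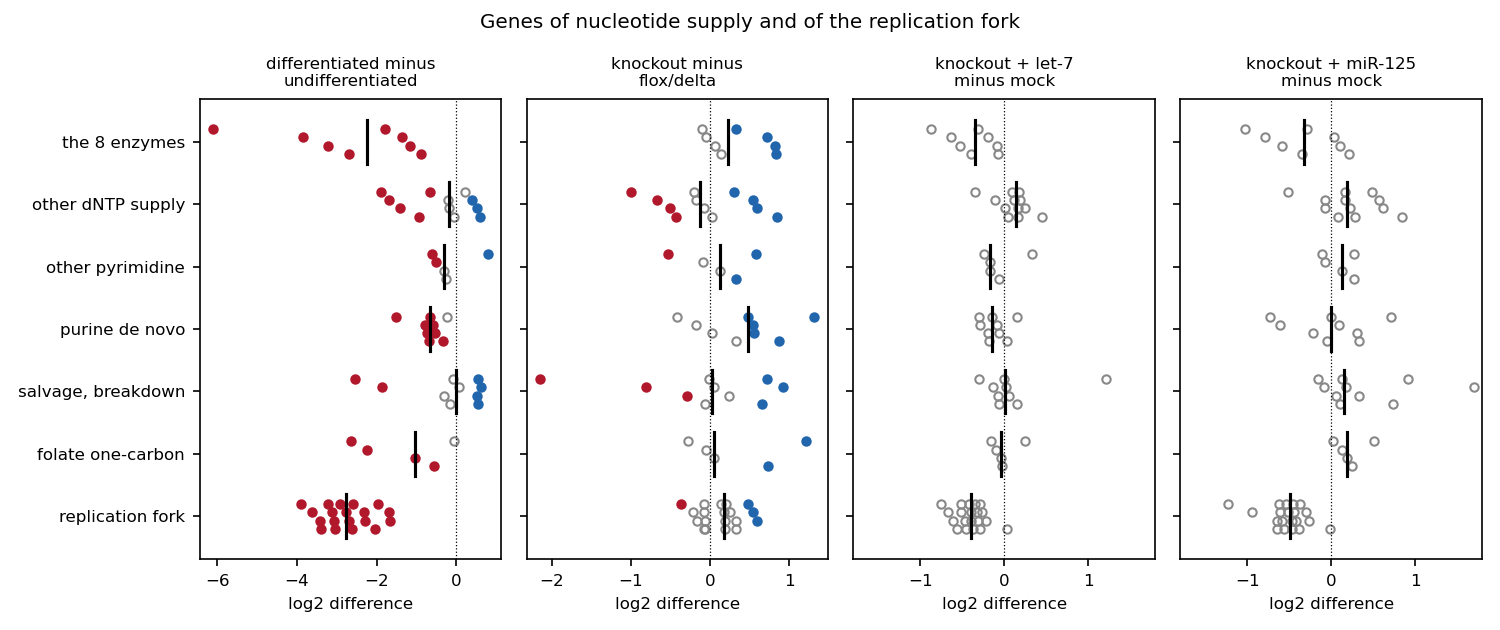
Log2 differences (x axes, with a range of their own in each panel) of single genes of 7 lists in 4 comparisons. Points are genes by their brightest tested probe, filled where they passed the test (red lower, blue higher) and open where they did not, and black bars are list medians. On differentiation all of the 8 enzymes (median -2.23) and all 19 replication fork genes (median -2.77) fell. In the knockout the same lists centre on 0.23 and 0.18.

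Knockout and flox/delta cells were compared undifferentiated, with the same 3 flox/delta arrays as above. Tamoxifen is listed for the knockout arrays alone, so its effect and that of Dgcr8 loss cannot be told apart here. Of the 8 genes 4 rose and none fell: Tyms, Umps, Cad and Tk1. By probe, 8 of 15 rose, beside 27.1% of all 12356 probes tested, and 25.7% of all probes fell. The median over the 8 genes was 0.23, beside 0.02 over all genes. The rises were at most 1.86-fold.

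Tyms at ILMN_2484707 read 11.23, 11.19 and 11.51 in knockout and 10.43, 10.50 and 10.55 in flox/delta arrays. Every knockout array was the higher. The log2 difference was 0.82 ± 0.11 (SE, limma adjusted p = 0.000266). Probe ILMN_1247173 gave 0.89 ± 0.09 (limma adjusted p = 3.18e-05). The dim probes ILMN_2441895 and ILMN_2441899 had differences of 0.40 and 0.37 that did not pass (limma adjusted p = 0.0566 and 0.0726), with arrays that overlapped. Both passed when all 9 arrays of hybridization 1 were fitted together (limma adjusted p = 0.0376 and 0.0490) and without flox/delta replicate 3.

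Both de novo pyrimidine enzymes rose. Cad read 9.27, 9.36 and 9.21 in knockout and 8.42, 8.45 and 8.80 in flox/delta arrays. Umps at ILMN_1213014 read 9.33, 9.29 and 9.33 in knockout and 8.16, 8.70 and 8.58 in flox/delta arrays. The groups did not overlap in either gene. Cad had a log2 difference of 0.72 ± 0.12 (SE, limma adjusted p = 0.000908) and Umps of 0.84 ± 0.14 (limma adjusted p = 0.000829). The other Umps probes gave 0.59 and 0.67 and passed. The former, ILMN_1254813, no longer passed without knockout replicate 1 (0.55, limma adjusted p = 0.0579) or with no filter on dim probes (0.59, limma adjusted p = 0.0595), and was 0.37 without flox/delta replicate 1.

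Tk1 at ILMN_2605890 read 11.18, 11.19 and 11.20 in knockout and 10.84, 10.89 and 10.87 in flox/delta arrays. The arrays of each group lay close together and the groups did not overlap. The log2 difference was 0.32 ± 0.09 (SE, limma adjusted p = 0.0114), and at ILMN_2893926 it was 0.58 ± 0.09 (limma adjusted p = 0.000585). With arrays scaled to a common median in place of quantiles, the brighter probe's difference was 0.45 and did not pass (limma adjusted p = 0.143).

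The remaining 4 genes did not pass in the knockout, and their intervals bound what these arrays could miss. Rrm1 read 10.65, 10.70 and 10.37 against 10.50, 10.63 and 10.41, with a log2 difference of 0.06 and a 95% interval of -0.20 to 0.33. Rrm2 at ILMN_2819319 read 9.27, 9.34 and 9.30 against 9.02, 9.35 and 9.14, with a difference of 0.13 and an interval of -0.11 to 0.38. In both genes knockout and flox/delta arrays were interleaved. Dut had a difference of -0.05 (interval -0.34 to 0.24) and Dck of -0.10 (interval -0.32 to 0.11). The other Rrm2 probe, ILMN_2714565, had a difference of 0.08 (interval -0.31 to 0.47).

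In the other lists the knockout moved genes both ways. Per gene, 27.9% of all 9129 genes rose and 26.1% fell. Deoxynucleotide supply and salvage genes lay near these shares, and replication fork genes passed less often. Of 12 genes of deoxynucleotide supply, 4 rose (Cmpk2 by 0.85, Dctd by 0.60 and Samhd1, which breaks dNTPs down, by 0.54 among them) and 4 fell, of which Dtymk fell by 1.00, Guk1 by 0.67 and Rrm2b by 0.50. Ctps (0.58), which makes CTP, and Uck2 (0.33) rose and Uck1 (-0.54) fell. Purine synthesis had 5 of 9 genes higher and none lower, led by Impdh1 (1.32), the rate-limiting enzyme of guanine nucleotide synthesis, Gart (0.87) and Ppat (0.55). Salvage and breakdown had Ada (0.93), Pnp (0.72) and Hprt (0.66) higher, and Upp1 (-2.15), Nt5e (at least 1.39-fold lower) and Nt5c (-0.29) lower. In folate supply Mthfd2 (1.22) and Fpgs (0.73) rose, and the other 3 did not pass. Of 19 replication fork genes 3 rose, Mcm7 (0.60), Pole (0.54) and Mcm3 (0.48), and Lig1 (-0.37) fell. Glial progenitor markers fell in 6 and rose in 1 of 9 measured genes. Astrocyte markers fell in 4 and rose in 1 of 6, with summed astrocyte levels of 5336 to 5817 against 11584 to 12719. The 1 measured oligodendrocyte marker fell (summed level of that list 137 to 151 against 363 to 589), and of 5 neuron markers 2 fell and 1 rose. The part of these markers in the rises was not tested.

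**Figure D3:**
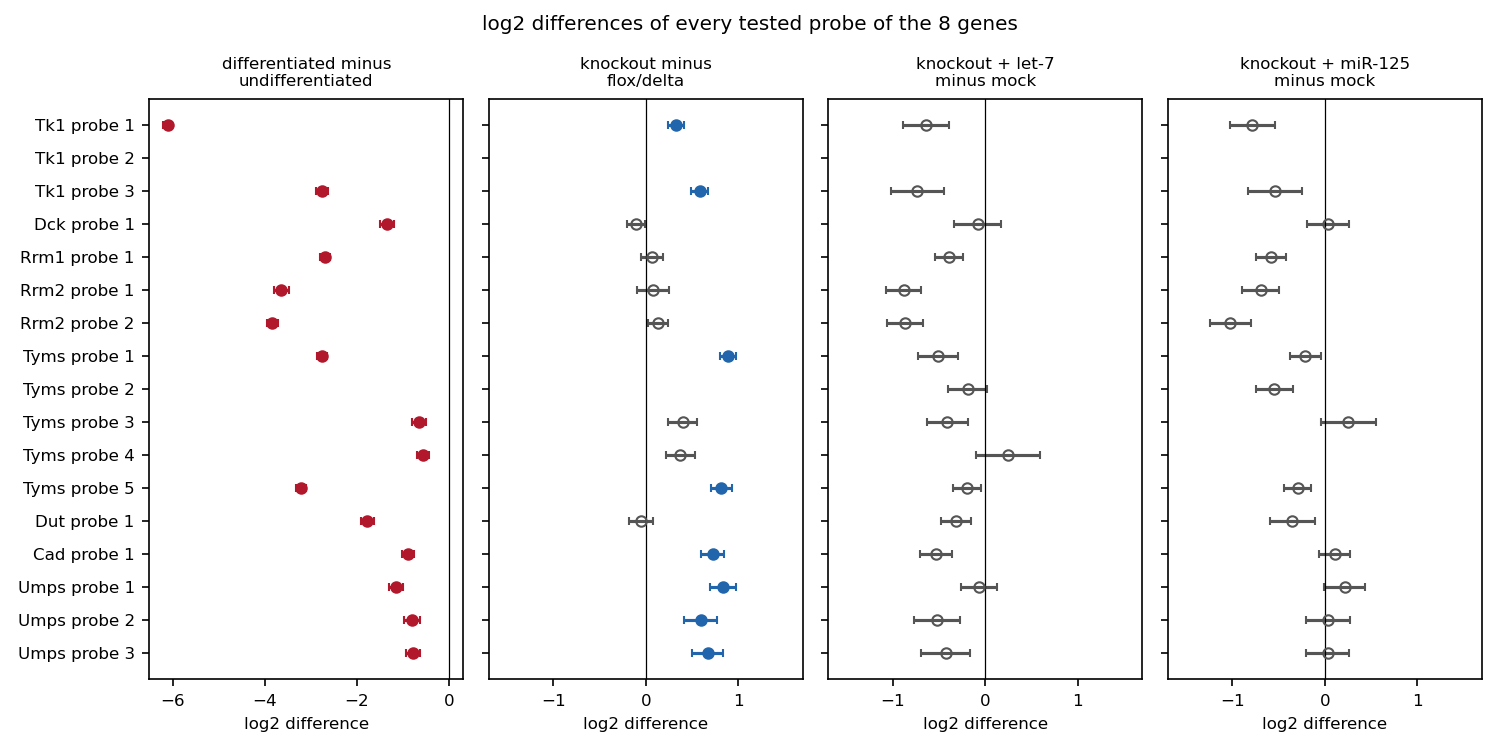
Log2 differences (x axes, wider in the left panel) of each tested probe of the 8 genes in 4 comparisons, with SE as bars. Filled points passed the test, red lower and blue higher, and open points did not. A gap marks a probe that was not tested there. Each of the 15 tested probes lies below 0 on differentiation, and 8 of 15 were called higher in the knockout. Rrm2 probes lie between -1.02 and -0.69 in both microRNA comparisons without passing.

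The microRNA comparisons asked what let-7 or miR-125 does to these genes in knockout cells. The labels do not say which family member was given. The 8 mouse let-7 sequences of the table share the seed GAGGUAG (bases 2 to 8), and both miR-125 sequences share CCCUGAG, so 1 let-7 and both miR-125 sequences are shown with the seed in capitals, from RefSeq (GRCm38.p6).

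mmu-let-7a-5p, chr13:48538239-48538260: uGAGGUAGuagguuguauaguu

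mmu-miR-125a-5p, chr17:17830817-17830840: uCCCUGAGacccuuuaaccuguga

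mmu-miR-125b-5p, chr9:41581940-41581961: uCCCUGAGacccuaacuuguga

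None of the 8 genes passed the test with either microRNA. With let-7, 0.0388% of 12887 probes passed, and with miR-125 0% of 12690 did, while 2235 and 2505 probes had an unadjusted limma p under 0.05. Of the genes' own tested probes, 6 of 16 with let-7 and 5 of 15 with miR-125 had an unadjusted p under 0.05. With the replicate number as a block, 2 and 4 of all probes passed and again none of the 8 genes. The let-7 arrays and the mock arrays set against them carried a term for the hybridization. The 2 comparisons share mock replicates 2 and 3, so the values below are given side by side and not as support for each other.

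Rrm2 came nearest to the threshold in each. With let-7 the brighter probe, ILMN_2819319, read 9.46, 9.64 and 9.91 in replicates 1 to 3, against 10.83, 10.41 and 10.38 in their mock partners. With miR-125 it read 8.29, 9.07 and 9.01, against 9.71, 9.88 and 9.85. No array with a microRNA reached its mock range. The log2 difference was -0.87 ± 0.19 with let-7 (SE, limma adjusted p = 0.152, interval -1.33 to -0.41) and -1.02 ± 0.22 with miR-125 (limma adjusted p = 0.103, interval -1.54 to -0.50). The other Rrm2 probe gave -0.88 and -0.69. Without background correction the brighter Rrm2 probe passed with let-7 (-0.76, limma adjusted p = 0.0307) and with miR-125 (-0.83, limma adjusted p = 0.0361), and the authors' deposited normalized values gave limma adjusted p = 0.0307 and 0.0357. The let-7 values of both settings are the same and the miR-125 values nearly so. The authors' values are thus no separate support. Over all alternatives its adjusted p ran from 0.0307 to 0.744 with let-7 and from 0.0357 to 0.265 with miR-125.

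Rrm1 read 11.15, 11.81 and 11.48 with let-7 against 11.78, 11.91 and 11.92 in mock, and 10.59, 11.10 and 11.00 with miR-125 against 11.48, 11.48 and 11.49. Arrays overlapped with let-7 and did not with miR-125. The log2 differences were -0.39 ± 0.15 (SE, limma adjusted p = 0.266) and -0.59 ± 0.16 (SE, limma adjusted p = 0.134).

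Tk1 at ILMN_2605890 read 10.60, 11.89 and 11.73 with let-7 against 11.95, 12.28 and 11.91 in mock, and 10.40, 11.30 and 10.87 with miR-125 against 11.58, 11.88 and 11.47. At this probe replicate 1 was the lowest array with each microRNA, and no microRNA array reached its mock range. With let-7 the closest arrays, 11.89 and 11.91 in mock, nearly met. The log2 differences were -0.64 ± 0.25 (SE, limma adjusted p = 0.268) and -0.78 ± 0.24 (SE, limma adjusted p = 0.152). In hybridization 3 alone, without replicate 1, the let-7 difference of this Tk1 probe was -0.31. The dimmer probe ILMN_2893926 gave -0.74 with let-7 (limma adjusted p = 0.267) and -0.54 with miR-125 (limma adjusted p = 0.356). Its arrays overlapped mock with miR-125 and did not with let-7.

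Cad did not pass with either microRNA. It read 9.73, 9.71 and 10.18 with let-7 against 10.49, 10.29 and 10.44 in mock, and 9.67, 9.79 and 10.01 with miR-125 against 9.48, 9.75 and 9.91. The let-7 arrays lay below their mock arrays, and the miR-125 arrays overlapped theirs. The log2 differences were -0.53 ± 0.17 (SE, limma adjusted p = 0.211) and 0.11 ± 0.17 (SE, limma adjusted p = 0.771). Set directly against miR-125, let-7 gave -0.49 ± 0.20 (SE, limma adjusted p = 0.239, interval -0.93 to -0.05), and the arrays of these groups did not overlap.

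The other 4 genes did not pass either. Tyms at ILMN_2484707 had differences of -0.20 with let-7 and -0.29 with miR-125, and at ILMN_1247173 of -0.51 and -0.21. Without let-7 replicate 1 the former was -0.073. Dut had differences of -0.32 with let-7 and -0.35 with miR-125. On leaving out 1 array Dut ran from -0.45 to -0.18 with let-7, highest without mock replicate 1, and from -0.57 to -0.12 with miR-125, lowest without miR-125 replicate 3 and highest without miR-125 replicate 1. Dck had -0.08 and 0.04, and its mock arrays spread from 7.35 to 8.48 in the let-7 comparison. Umps at ILMN_1213014 had -0.07 and 0.22, at ILMN_1254813 -0.52 and 0.03, and at ILMN_2987878 -0.43 and 0.03. In each of these the arrays of the groups overlapped. Of the dim Tyms probes, ILMN_2434519 had -0.19 with let-7 and -0.55 with miR-125 (limma adjusted p = 0.665 and 0.191). Its miR-125 arrays, of which 1 was above background, did not overlap mock. ILMN_2441895 had -0.41 and 0.25, and ILMN_2441899 had 0.25 with let-7 and was not tested with miR-125. Set directly against miR-125, let-7 changed none of the 8 genes past the threshold, beside 0.602% of 13617 probes (82, and 562 with the replicate block).

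The replicate numbers of these groups mark separate tamoxifen treatments, so same-numbered arrays can be set against each other. With let-7, 5 of 8 genes were lower in all 3 pairs: Tk1, Rrm1, Rrm2, Dut and Cad. By probe this was 9 of 16, beside 25.6% of all tested probes. With miR-125 it was again 5 of 8 genes, Tk1, Rrm1, Rrm2, Tyms and Dut, and 9 of 15 probes, beside 27.6% of all probes. The pair differences of the brighter Rrm2 probe were -1.37, -0.77 and -0.47 with let-7 and -1.42, -0.81 and -0.84 with miR-125, and pair 1 was the largest in both. Higher in all 3 miR-125 pairs were 2 of 15 probes. These were Cad, by 0.19, 0.03 and 0.10, and Umps ILMN_1213014, by 0.28, 0.10 and 0.26. The share of all probes higher in all 3 pairs is not given here. Over the 8 genes the median difference was -0.35 with let-7 and -0.32 with miR-125, beside -0.01 and -0.02 over all genes. Replication fork genes had medians of -0.39 and -0.49 over 20 genes, none of which passed.

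Markers of endothelial and mural cells passed the detection filter for 2 genes in these arrays, and neither passed the test with either microRNA. The summed level of that list was 4304 to 8646 with miR-125 against 841 to 3114 in mock. With let-7 it was 383 to 2444 against 1387 to 4312. Oligodendrocyte markers, 2 measured genes that did not pass either, summed to 355 to 414 with miR-125 against 458 to 580 in mock. With let-7 they summed to 501 to 913 against 671 to 903. Summed levels of the other marker lists overlapped between each microRNA and its mock arrays. The part of these lists in the values above was not tested. In the direct contrast, Dctpp1 was lower with let-7 than with miR-125 (-1.13, limma adjusted p = 0.0325) and Impdh1 was higher (0.72, limma adjusted p = 0.0492), the only genes of the nucleotide and replication lists to pass there. No probe passed in that contrast (0) in hybridization 3 alone, or on leaving out any single array other than mock replicate 1 of hybridization 3 and replicate 3 of either microRNA, so both calls are lost there.

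**Figure D4:**
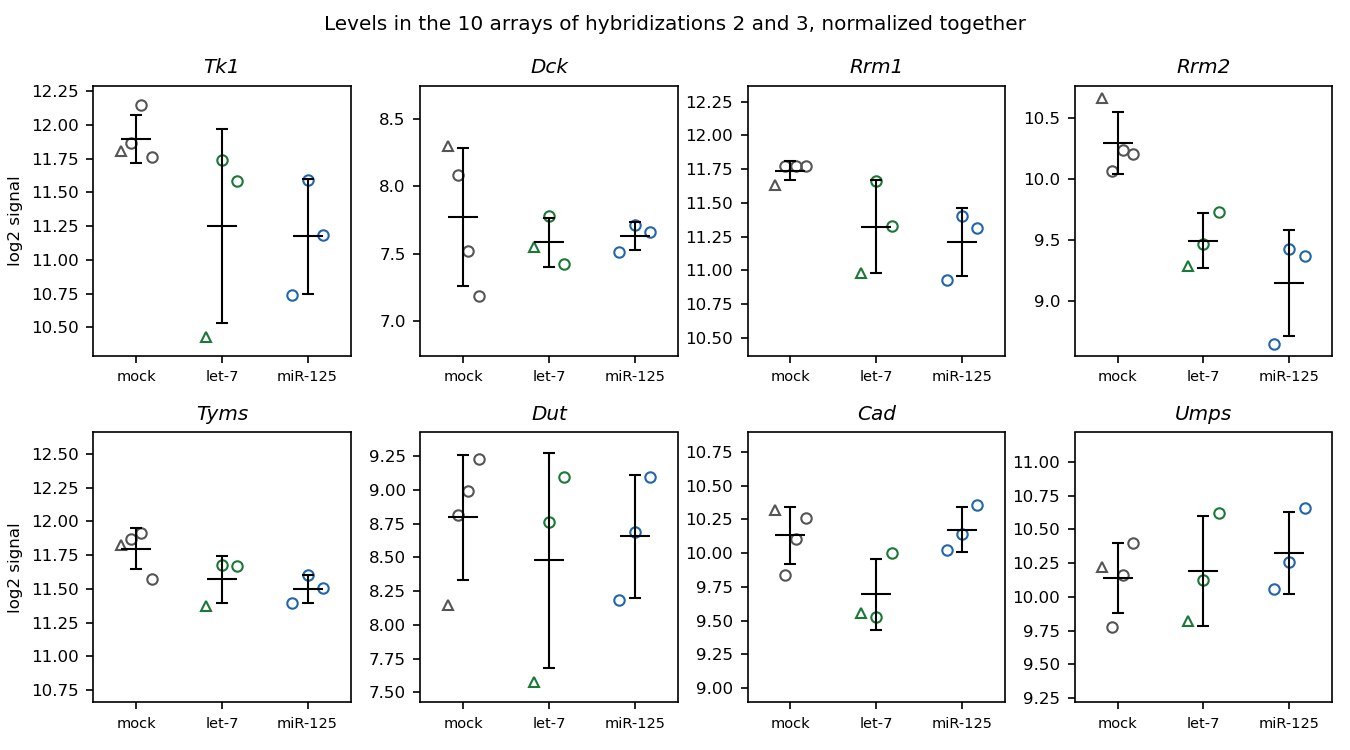
Log2 signal (y axes, each with its own range) of the brightest probe of each gene in knockout arrays of the mock, miR-125 and let-7 groups, normalized together. Circles are arrays of hybridization 3 and triangles of hybridization 2, and bars are the mean with SD (n = 4 for mock and 3 for each microRNA). Mean Rrm2 is 10.29 in mock, 9.15 with miR-125 and 9.49 with let-7, while Umps and Dut overlap between all groups. In the main fits Rrm2 passed with neither microRNA. With all 10 arrays fitted together, the Rrm2 difference from mock passed with miR-125 (-1.11, limma adjusted p = 0.0381) and did not with let-7.

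Through the groups of hybridization 1, normalized together, the order of mean level was knockout, undifferentiated flox/delta, differentiated flox/delta for Tk1 (11.14, 10.82 and 4.65), Tyms (11.26, 10.45 and 7.21), Cad (9.24, 8.53 and 7.62) and Umps (9.28, 8.45 and 7.28), with no overlap between neighbours. For Rrm1 (10.53, 10.47 and 7.76) and Rrm2 (9.27, 9.14 and 5.24) the order was the same, but knockout and flox/delta arrays overlapped. For Dut (7.24, 7.29 and 5.48) and Dck (6.86, 6.97 and 5.58) the knockout mean lay just under that of flox/delta, again with overlap. In hybridizations 2 and 3, mock had the highest mean for Tk1 (11.90), Rrm1 (11.74), Rrm2 (10.29), Tyms (11.80), Dut (8.80) and Dck (7.77). MiR-125 had the highest for Cad (10.17, against 10.13 in mock) and Umps (10.32, against 10.14 in mock), with overlapping arrays in both. Mock arrays also overlapped those of both microRNAs for Tyms, Dut and Dck, and those of let-7 for Rrm1. The mock means count both arrays of replicate 1, and no hybridization term was used for these levels.

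Genes most like each of the 8 were sought by the Euclidean distance between their 4 log2 differences (differentiation, knockout, let-7 and miR-125), over 7785 genes tested in all 4. Rrm1 lay nearest to Iqgap3 (0.15), Rad51ap1 (0.17) and Rfc4 (0.19), and Rrm2 to Kif15 (0.39), H2ac11 (0.43) and Clspn (0.44). Tk1 had no close partner, its nearest being Pbk (1.16), Cdca3 (1.38) and Cdk1 (1.5). Tyms lay nearest to Spdl1 (0.14), Tyms-ps (0.29) and Plk2 (0.32), and Dut to Pola2 (0.13), Aaas (0.15) and Pcna (0.20). Dck lay nearest to Gins3 (0.06), Ror2 (0.14) and Egfr (0.21). Umps lay nearest to Etv1 (0.14), Rbbp7 (0.18) and Btbd3 (0.21), and Cad to Dcaf15 (0.22), Aven (0.29) and Tex10 (0.32). These distances describe 4 comparisons that share arrays.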

How the data were processed

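The members and the gene lists were chosen with earlier results of these data known. Of 24 sample entries, 5 repeat an array, which leaves 19 arrays in 6 groups. Per the file headers, the deposited non-normalized table pairs each array's signal intensity with a detection p-value for every probe. The values look free of background subtraction. The authors' deposited normalized tables hold quantile normalized intensity on the linear scale (differentiation and knockout) or log2 signal (let-7 and miR-125), as far as the values show, and the submitters' processing notes name limma, with no version. Replicates 1 and 3 of undifferentiated flox/delta and knockout cells are swapped there relative to the non-normalized table, whose numbers were used.

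Signals of exactly the arrays compared went through neqc (background correction, quantile normalization, log2 scale, offset 16) of limma 3.58.1 in R 4.3.3. Probes with detection p under 0.05 on at least 3 arrays were kept and tested with lmFit and eBayes, with two-sided p-values adjusted by Benjamini-Hochberg across the kept probes. Values are means ± SD over arrays, differences are ± SE, and intervals are at 95%. Whether arrays of groups overlap describes single probes, and the share of all probes without overlap is not given here. For let-7, the 3 arrays met mock replicate 1 from hybridization 2 and mock replicates 2 and 3 from hybridization 3, with a hybridization term. All miR-125 arrays and their mock arrays were in hybridization 3. The direct contrast used all 10 arrays with that term and counts both mock arrays of replicate 1, which may hold the same RNA. A level not above background on any array of a group gives a fold as a lower bound, the bright group against the lowest detected signal. Symbols were given for 23978 probes and none for 1719, and 23962 Entrez IDs were found in the RefSeq table. Named genes are the 8 members with all probes, up to 3 genes per list, direction and comparison with the largest called difference, and the 3 nearest genes of each member. The main fits of the 5 comparisons were run on simulated arrays with independent noise. That leaves out the correlation of same-numbered arrays, and no outcome is given here. Alternatives were other background corrections, normalizations, filters and array sets, the replicate block, and each array left out. Replicate numbers of the microRNA and mock groups mark separate tamoxifen treatments per the labels and so pair the arrays, with correlations of same-numbered deviations from group means of 0.63 to 0.87 for let-7 and 0.35 to 0.54 for miR-125. In hybridization 1 these correlations were -0.07 to 0.26. The labels do not say whether its numbers mark separate cultures, and its arrays were not paired in the main fits. Untranslated regions were not analysed here. The number of arrays limits the precision.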

Additional observations from a re-analysis of the deposited data

Results flagged for a closer look

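Among the 17 probe sets of 4 mock arrays that could be tested for a single distant array, 1 was found, against about 1 in 20 by chance. The mock array of replicate 1 in hybridization 2 read 11.64 for Rrm1, below the other 3 mock arrays, which began at 11.77. Cad moved in opposite directions from mock in every same-numbered pair with let-7 and with miR-125. The share of all probes that do so is not given here, and the miR-125 difference of Cad was 0.11 ± 0.17 (SE). Set directly against miR-125, let-7 gave Cad a log2 difference of -0.49 (limma adjusted p = 0.239), which did not pass.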

How the results depend on the processing

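The count of the 8 genes called on differentiation stayed at 8 under all alternatives but the filter that asks for detection on every array (7, because Tk1 is then not tested), and that in the knockout at 4 but for median scaling (3, without Tk1). Median scaling left 3725 called probes in the knockout in place of 6522. With let-7, 1 of the 8 genes, Rrm2, passed without background correction and with the authors' deposited normalized values, which gave it the same difference and p-value. Both settings are counted among the repeats below. With miR-125, Rrm2 alone passed (1 gene) in these settings and when all 10 arrays were fitted together.

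Counts of all called probes moved more. With let-7 they were 341 without background correction and with the authors' values, 53 with normexp, 15 with median scaling, 2 with 1 probe per gene, 2 with the replicate block, 23 over 10 arrays, and 0 without the hybridization term, in hybridization 3 alone and on leaving out any 1 array (0 to 0), against 5. With miR-125 they were 367 without background correction, 348 with the authors' values, 138 with normexp, 3 with detection on every array, 4 with the replicate block and 499 over 10 arrays, against 0. For let-7 against miR-125 they were 446, 275 with normexp, 24 without a filter, 230 with detection on every array, 562 with the replicate block, 0 in hybridization 3 alone and 0 to 73 on leaving out 1 array, against 82. The replicate block changed no gene's call among the 8. In hybridization 1 the labels do not say whether the numbers mark separate cultures. There the block called 4 of the 8 genes in the knockout and 8 on differentiation, as without it. In the knockout the Tyms probes ILMN_2441895 and ILMN_2441899 passed with it (limma adjusted p = 0.0114 and 0.0118), as both did over all 9 arrays (0.0376 and 0.0490), the first with detection on every array (0.0473), and both without flox/delta replicate 3. The cause of these shifts was not tested.

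Of 1185 repeats of single probe values of the 8 genes, 1125 kept direction and side of the threshold, 15 passed anew, 3 ceased to pass and 42 changed sign, none of the last with an adjusted p under 0.659. In the knockout, Dut was 0.019 with median scaling and -0.18 to 0.060 on leaving out 1 array, and Rrm2 ILMN_2714565 was -0.088 to 0.26. With let-7, Umps ILMN_1213014 was 0.068 over 10 arrays, 0.10 in hybridization 3 and -0.25 to 0.10 on leaving out 1 array. Dck was 0.24 in hybridization 3 and -0.28 to 0.25, and Tyms ILMN_2441899 was -0.13 to 0.52. With miR-125, values over 10 arrays were -0.055 for Dck, -0.024 for Umps ILMN_1254813 and -0.061 for Umps ILMN_2987878, and leaving out 1 array gave -0.16 to 0.27, -0.16 to 0.22 and -0.12 to 0.28, with -0.010 to 0.21 for Cad. For let-7 against miR-125 in hybridization 3 alone, Umps ILMN_1213014 was 0.050, Rrm2 ILMN_2714565 was 0.10 and Tk1 ILMN_2893926 was 0.11, and leaving out 1 array gave -0.32 to 0.10, -0.24 to 0.17 and -0.27 to 0.21, with -0.050 to 0.41 for Dut.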
